A study of Macaca mulatta with 16 samples.

Results

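Extracellular matrix genes were followed across the extraocular muscles of adult rhesus macaques, the muscles that rotate the eye. They were SPP1 (osteopontin), SPARC, SPARCL1, TNC (tenascin-C), POSTN (periostin), FBN1 (fibrillin-1), FBLN1 (fibulin-1), FN1 (fibronectin), VCAN (versican) and ELN (elastin). Members were all probe sets whose platform annotation gave 1 of these symbols, 28 on the U133A array and 2 on the U133B array, hence 10 of 17518 genes and 30 of 44928 probe sets in the series. All 10 genes were on U133A, and FBN1 and TNC had 1 further probe set each on U133B.

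The samples formed 4 groups, each measured with 2 arrays on both array types, 16 arrays in all, and this number limits the precision of every value. The orbital layer, which faces the bony orbit, and the global layer, which faces the eyeball, were laser-microdissected, and their RNA was amplified with T7 polymerase. The lateral and the medial rectus were taken whole and followed the standard Affymetrix protocol, for which that amplification step is not named. All groups were adult macaque muscle read on human arrays. Orbital layer replicate 1 on U133A has labels that disagree, with orbital in the title and global in the source name. The title was followed, and each layer result that passed the test is also given without that array. The source name of global layer replicate 1 on U133B names microdissected layers without saying which, and its title names the global layer.

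Values are intensities, scaled per array by the authors, and no level of one probe set is set against that of another. Differences are on a log2 scale after values under a floor of 146 units (U133A) or 218 units (U133B) were raised to it. Probe sets were tested where their mean log2 intensity over the arrays compared reached that of the table's median intensity. The labels do not say whether arrays of a group came from different animals, so p-values reflect the spread among these samples alone, and the labels do not tie regions to animals. P-values between layers would be too small if arrays of 1 layer shared an animal, and too large if an animal gave an array to both layers. In these bulk samples, fewer cells of a type and less RNA per cell cannot be told apart.

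Extracellular matrix surrounds every muscle fibre and carries its force. Fibronectin and versican form much of the early, pliable matrix, while fibrillin-1 builds the microfibrils on which elastin is laid down with the help of fibulins. Osteopontin, SPARC, SPARCL1, tenascin-C and periostin are matricellular proteins, secreted proteins that bind matrix and cell receptors such as integrins and tune adhesion more than they bear load. Extraocular muscle is rich in connective tissue, and fibres of its orbital layer are held to insert into the sleeve-like pulleys that steer the eye muscles, whereas those of the global layer reach the globe through the tendon.

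The muscle identity of the samples was checked first. All 8 muscle fibre markers listed (CKM, ACTA1, TTN, MYH1, MYH2, TNNT3, DES and MB) were above the floor in every group on U133A, and their summed intensity ran from 433384 to 515302 in the layers and from 509550 to 656666 in whole muscle. The 3' to 5' signal ratio of ACTB measures how far 3' ends dominate the labelled RNA. On U133A it was 5.30 and 5.87 in orbital samples, 2.84 and 2.88 in global samples and between 0.716 and 1.04 in whole muscle. The GAPDH ratio did not part the groups on U133A, at 1.73 and 2.00 in orbital samples and 2.92 in 1 global sample. The other global sample lay below both orbital samples and within the whole muscle range of 0.947 to 1.66. On U133B both ratios parted the layers from whole muscle. They ran from 3.54 to 5.29 against 0.512 to 0.933 for ACTB and from 2.04 to 4.33 against 1.18 to 1.74 for GAPDH. Median intensity lay between 476 and 587 units in the layers and between 788 and 852 in whole muscle on U133A.

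**Figure D1:**
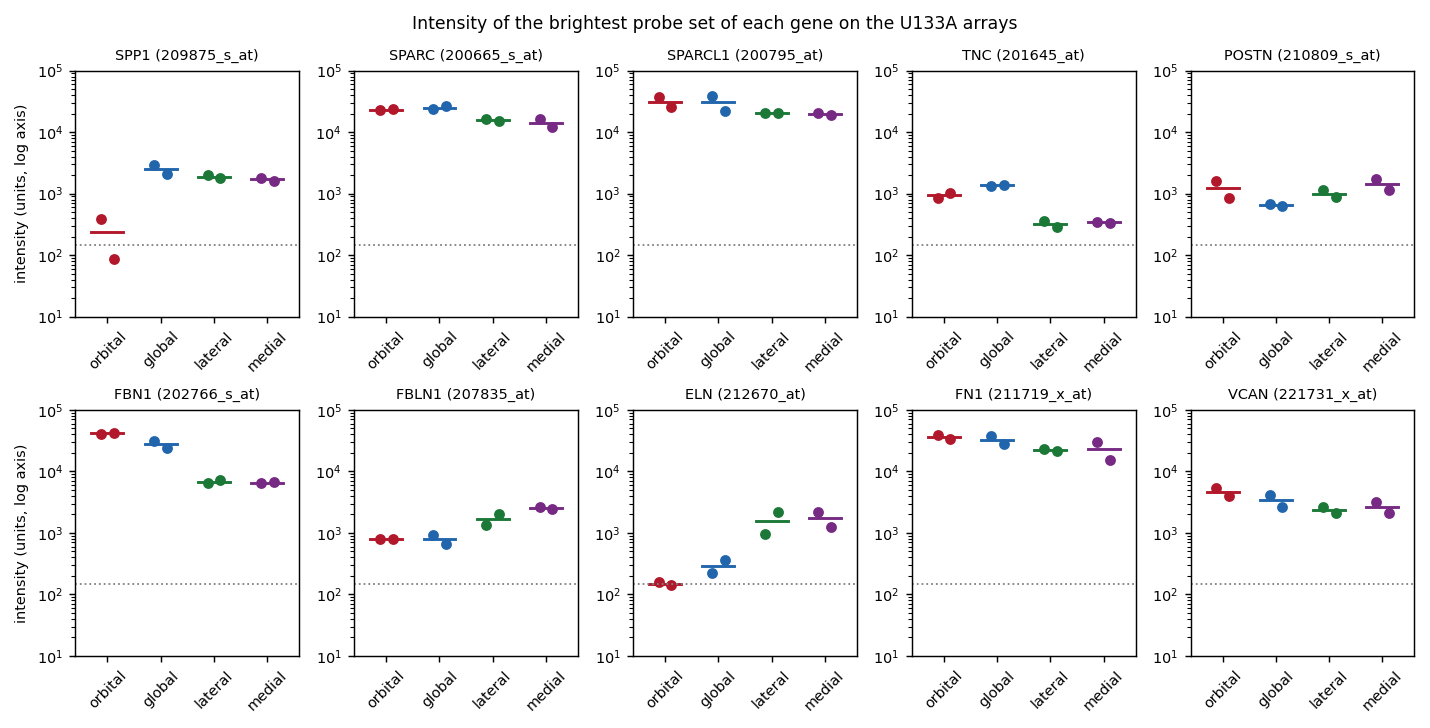
Intensity (log axis, units as deposited) of the brightest probe set of each of the 10 genes on the 8 U133A arrays, with a point per array, a bar at each group's mean and a dotted line at the floor of 146 units. SPP1 is lowest on the orbital arrays (86.6 and 392), FBN1 is higher on all layer arrays (from 24415) than on any whole muscle array (up to 7199), and ELN is higher on all whole muscle arrays (from 974) than on any layer array (up to 365).

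The first comparison asked which of these matrix genes differ between the orbital and the global layer. Osteopontin was far lower in the orbital than in the global layer, and 1 of 5 fibulin-1 probe sets was far higher in it. No probe set of the other 8 genes passed the test in either direction. On U133A, 16 of the 28 probe sets, with all 10 genes among them, were high enough to be tested, and 2 passed limma's test at an adjusted p under 0.05, beside 0.409% of the 9532 probe sets tested in the table. These 2 passed the intensity filter only through the layer in which they were high. On U133B, 1 of 2 probe sets was tested and did not pass, beside 0.021% of 9510 in that table.

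SPP1 encodes osteopontin, a phosphoprotein that binds αv integrins and CD44 and is known in injured mouse muscle as a product of macrophages and myoblasts. Probe set 209875_s_at read 392 and 86.6 units on the orbital arrays, 2892 and 2119.7 on the global arrays, 2008 and 1765 on the lateral rectus arrays and 1811 and 1604 on the medial rectus arrays. Both orbital arrays lay below all 6 others, and 1 of them was under the floor. The orbital mean was 239.5 ± 216 units and the global mean 2506 ± 546 (SD, n = 2 each). The difference, orbital minus global, was −3.37 ± 0.50 on the log2 scale (SE; 95% confidence interval −4.52 to −2.22; adjusted p = 0.0417 in limma), a 10.3-fold lower value in the orbital layer. The lowest global array exceeded the highest orbital array 5.40-fold. In group means the order was global layer, lateral rectus, medial rectus and orbital layer, and the ranges of global layer and lateral rectus, 2119.7 to 2892 and 1765 to 2008, lay close together, while those of lateral and medial rectus overlapped.

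The direction of the SPP1 difference held in all 14 alternatives that gave a value, but its side of the threshold did not. Its limma adjusted p was 0.121 after quantile normalization, 0.0906 with a lower floor, 0.0664 without a variance trend and 0.532 with no intensity filter. Without global replicate 1 the probe set fell under the filter and had no test. With the probe sets kept over all arrays, an alternative added after the data were seen, the difference without that array was −3.14. The size of the difference rested on the orbital arrays and on the floor. It was −4.08 without orbital replicate 1, whose labels disagree, and −2.66 without orbital replicate 2, with the spread taken from the global arrays alone. It was −2.53 with the floor at the 40th percentile, where it passed (adjusted p = 0.0259 in limma). 

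FBLN1 encodes fibulin-1, a glycoprotein that binds fibronectin, fibrillin-rich fibres and versican and is made in several splice forms. Probe set 201787_at read 3229 and 2857 units on the orbital arrays, 57.6 and 190.2 on the global arrays, 698 and 412 on the lateral rectus arrays and 376 and 708 on the medial rectus arrays. Both orbital arrays lay above all others, both global arrays lay below all others, and the whole muscles fell between them and overlapped each other. The orbital mean was 3043 ± 263 units and the global mean 124 ± 93.8 (SD, n = 2 each). The difference was 4.19 ± 0.35 on the log2 scale (SE; limma adjusted p = 0.00640), an 18.2-fold higher value in the orbital layer, with 1 global array raised to the floor. The lowest orbital array exceeded the higher global array 15.0-fold. The global mean lay under the floor, so the floor sets the size of this fold, and with the floor at the 40th percentile the difference was 2.82 (limma adjusted p = 0.00919). Without the orbital array whose labels disagree, or without the other orbital array, the probe set fell under the filter and had no test. With the probe sets kept over all arrays, an alternative added after the data were seen, the difference without the former was 4.10 on 1 remaining orbital array (adjusted p = 0.00320 in limma). It was 3.96 after quantile normalization (adjusted p = 0.0265). With no intensity filter the adjusted p was 0.235.

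The other 4 FBLN1 probe sets did not show that difference. The 5 probe sets are annotated to 4 distinct transcript records, and which splice form each one reads was not tested. Probe set 207835_at read 796 and 799.6 units on orbital arrays and 926 and 660.3 on global arrays, so that the layers overlapped. Its difference was 0.028 ± 0.34 on the log2 scale (95% confidence interval −0.77 to 0.82; limma adjusted p = 0.988), and it was −0.22 without global replicate 2. Probe sets 202995_s_at (636 and 565 against 660.3 and 354 units), 202994_s_at (212 and 352 against 56.9 and 212) and 207834_at (69.0 and 57.0 against 112 and 110.3) were too low to be tested between layers. The last of these was under the floor on all 4 layer arrays.

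**Figure D2:**
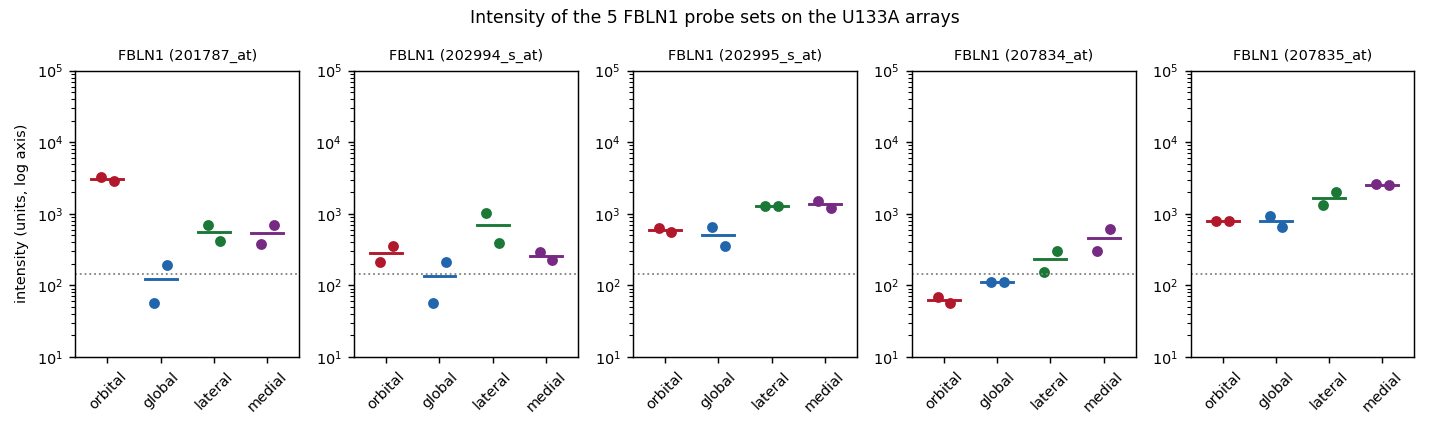
Intensity (log axis, units as deposited) of the 5 FBLN1 probe sets on the 8 U133A arrays, with a point per array, a bar at each group's mean and a dotted line at the floor of 146 units. Above the floor, only 201787_at parts the orbital arrays (2857 and 3229) from the global arrays (57.6 and 190.2), while 202995_s_at, 207834_at and 207835_at are higher on every whole muscle array than on any layer array.

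No probe set of the remaining matricellular genes passed between layers, and several of the intervals are wide. SPARC, a collagen- and calcium-binding glycoprotein, read 22884 and 23477 units on orbital arrays and 23705 and 26274 on global arrays at probe set 200665_s_at. The 2 ranges did not overlap but lay close together, with a log2 difference of −0.11 ± 0.20 (95% confidence interval −0.58 to 0.36; limma adjusted p = 0.900). Its second probe set, 212667_at, read 2826 and 3298 units on orbital arrays and 4600 and 6014 on global arrays. Here both orbital arrays were lower, by −0.78 ± 0.26 on the log2 scale (95% confidence interval −1.39 to −0.18), which did not pass (adjusted p = 0.397 in limma). SPARCL1, a SPARC relative also called hevin, read 36656 and 26114 units against 38935 and 22239. The global arrays enclosed the orbital ones, with a difference of 0.072 ± 0.31 (95% confidence interval −0.64 to 0.78).

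TNC, a hexameric glycoprotein of developing and loaded tendon and muscle, read 838 and 1042 units on orbital arrays and 1338 and 1385 on global arrays at probe set 201645_at. Both orbital arrays were lower, by −0.54 ± 0.29 on the log2 scale (95% confidence interval −1.21 to 0.12), without passing limma's test (adjusted p = 0.593). Probe set 216005_at read 241 and 359 units against 321 and 367 and was not tested, and the U133B probe set 237169_at was under its floor on 6 of 8 arrays. POSTN, a fasciclin-domain protein that binds tenascin-C and collagen, read 1594 and 849 units on orbital arrays and 683 and 619.8 on global arrays. Both orbital arrays were higher, by 0.84 ± 0.38 on the log2 scale (95% confidence interval −0.049 to 1.73; adjusted p = 0.554 in limma). Its second probe set, 214981_at, was under the floor on all 8 arrays.

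Among the fibre-forming genes, FBN1 was higher on both orbital arrays at its brightest probe set without passing the test. Probe set 202766_s_at read 40958 and 42198 units on the orbital arrays against 31517 and 24415 on the global arrays, a log2 difference of 0.58 ± 0.21 (95% confidence interval 0.091 to 1.08; limma adjusted p = 0.443). Probe set 202765_s_at read 791 and 382 units against 326 and 330.3, parted the layers the same way and was too low to be tested. On U133B, 235318_at read 3569 and 1517 units against 3233 and 1393. There each layer held 1 high and 1 low array, and the difference was 0.13 ± 0.53 (95% confidence interval −1.09 to 1.36).

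ELN, the elastic core protein, was near the floor in both layers at probe set 212670_at, with 158 and 141 units on orbital arrays and 224 and 365 on global arrays. This probe set was not tested between layers. The other ELN probe set, 216269_s_at, read 659 and 517 units against 999 and 675. The layers did not overlap but came within 1.02-fold of each other, and the difference was −0.49 ± 0.38 on the log2 scale (adjusted p = 0.711 in limma).

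FN1, the large adhesive glycoprotein that integrin α5β1 assembles into fibrils, had 4 bright probe sets, and on each of them the orbital mean was the higher one. Probe set 212464_s_at read 22967 and 21007 units on orbital arrays and 16590 and 14346 on global arrays. All orbital arrays were higher there, by 0.51 ± 0.22 on the log2 scale (limma adjusted p = 0.516). The other 3 are of the x_at kind, whose probes may also match other transcripts, and differed by 0.16 to 0.59 with adjusted p between 0.459 and 0.852 in limma. Of the dim FN1 probe sets, 214701_s_at read 180.3 and 301 against 549 and 258 units, and 214702_at was under the floor on 7 of 8 arrays.

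VCAN, a large chondroitin sulphate proteoglycan that binds hyaluronan, came closest to the threshold among the genes that missed it. Probe set 204620_s_at read 3536 and 2219 units on the orbital arrays, 1389 and 1327 on the global arrays, 2697 and 2224 on the lateral rectus arrays and 2521 and 2170.2 on the medial rectus arrays. Both global arrays were the lowest of all 8, and the orbital and whole muscle ranges overlapped. The orbital layer was 2.06-fold higher, 1.04 ± 0.30 on the log2 scale (95% confidence interval 0.35 to 1.74), which did not pass (limma adjusted p = 0.329). Probe set 221731_x_at, at 5329 and 4030.3 against 4199 and 2595 units, differed by 0.49 ± 0.31 with overlapping layers. The dim probe sets 204619_s_at, 211571_s_at and 215646_s_at lay between 65.8 and 1108 units in the layers and were not tested there. Of these, 211571_s_at parted the layers, at 512 and 277 units on the orbital and 179 and 65.8 on the global arrays.

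**Figure D3:**
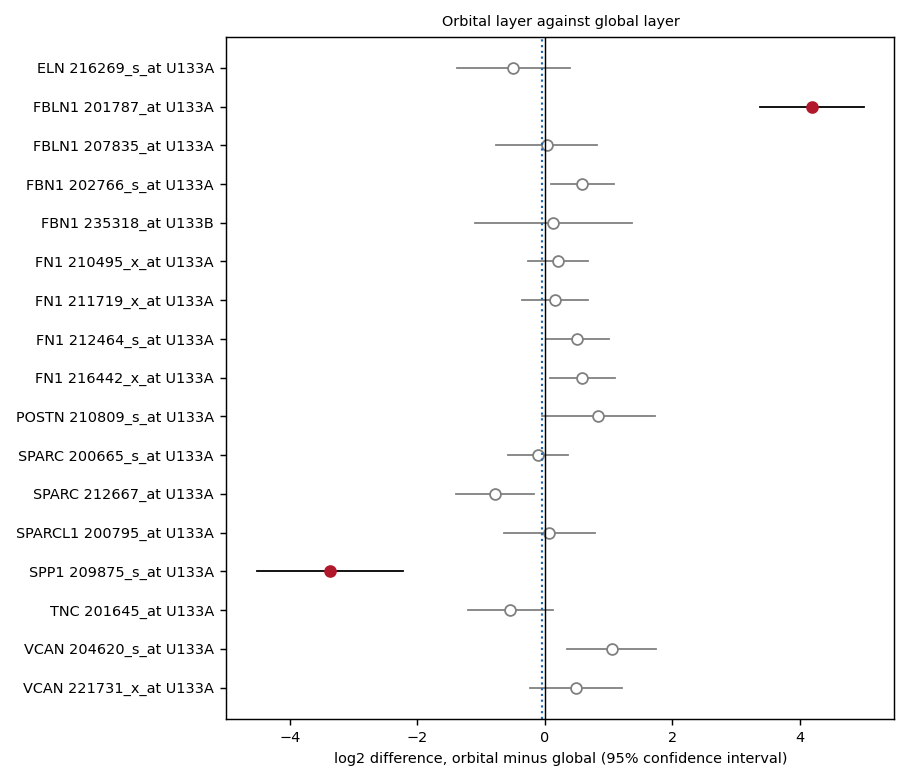
Log2 difference (orbital minus global layer) of each member probe set tested, with its 95% confidence interval; filled points passed limma's test and open points did not, and the dotted line marks the median of all U133A probe sets tested, −0.037. Only FBLN1 201787_at at 4.19 and SPP1 at −3.37 stand apart from the band between −0.78 and 1.04 that holds the others.

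As a set, the 16 tested probe sets had a median log2 difference of 0.18 beside −0.037 over all 9532. Of the 16, 11 were higher and 5 lower in the orbital layer, beside 4384 higher and 5148 lower of the 9532. An unadjusted p under 0.05 was reached by 7 of the 16 and by 905 of the 9532. The members were chosen with earlier results of these data known, and several probe sets read the same gene. These shares therefore describe the set and do not test it. Partner genes of these proteins were examined through 6 lists, also chosen with earlier results of these data known. None of their genes passed limma's test between layers on either array type.

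Of 13 elastic fibre and microfibril partners tested on U133A, 10 were higher in the orbital layer, with a median log2 difference of 0.33. Over all 9532 probe sets tested, 4384 were higher, with a median of −0.037. The counts by direction describe the partner and marker lists and do not test them. Among them EFEMP2 (fibulin-4) differed by 0.90 ± 0.25 and LTBP3, a latent TGF-beta binding protein, by 0.91 ± 0.29 (limma adjusted p = 0.310 and 0.367). Of 11 other matricellular proteins, 8 were higher, with a median of 0.46. THBS4, a thrombospondin of muscle and tendon, averaged 9323 ± 506 units in the orbital and 2936 ± 1503 in the global layer (SD, n = 2 each), a difference of 1.77 ± 0.36 that did not pass (adjusted p = 0.149 in limma). CCN1, a heparin-binding matricellular protein, and TGFBI, a periostin relative, differed by 1.01 ± 0.28 and 0.79 ± 0.28.

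The receptor list, with integrins, syndecans and CD44, had 5 of 9 tested genes higher and a median of 0.026. CD44, a receptor of osteopontin and hyaluronan, differed by −0.53 ± 0.36 and ITGAV by 0.44 ± 0.38. The hyaluronan and hyalectan partners had 1 of 4 higher and a median of −0.26, with ACAN (aggrecan) at −0.55 ± 0.31. Of 9 matrix proteases and inhibitors 4 were higher, with a median of −0.17. PLAT, the tissue plasminogen activator, averaged 3428 ± 286 units in the orbital and 1106 ± 176 in the global layer, and its difference of 1.64 ± 0.26 came nearest to the threshold (limma adjusted p = 0.0592). TGF-beta ligands and receptors had 4 of 8 higher and a median of 0.017, with TGFB2 at −1.01 ± 0.43. On U133B, the elastic fibre partner ADAMTSL4 differed by 1.66 ± 0.33 (adjusted p = 0.275 in limma). Its U133A probe set differed by 0.33 ± 0.32 (limma adjusted p = 0.767).

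**Figure D4:**
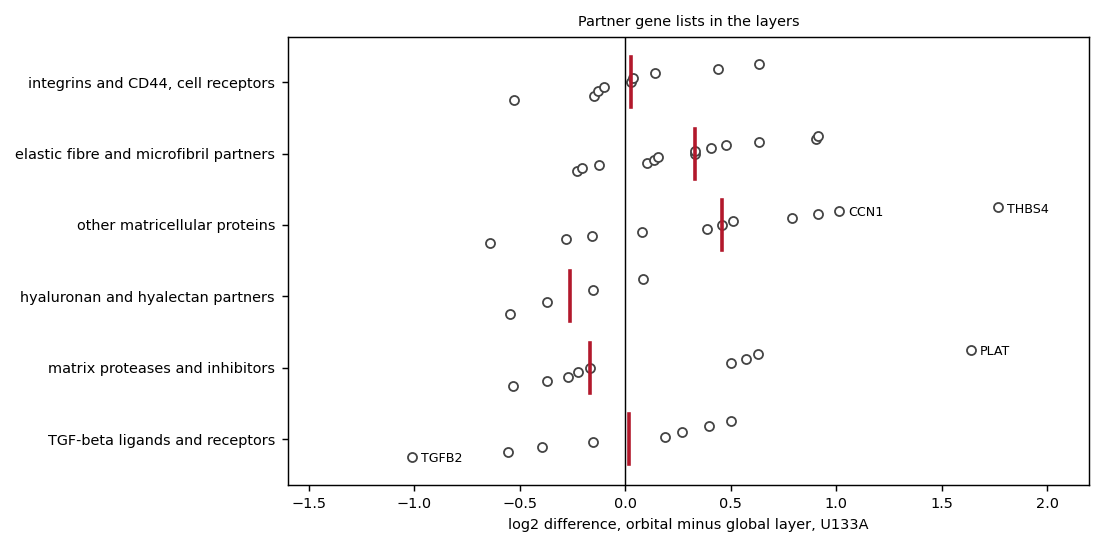
Log2 difference (orbital minus global layer, U133A) of each tested gene in 6 lists of partner genes, with an open circle per gene, a red bar at each list's median and names for genes beyond 1 in size. None of these genes passed limma's test; THBS4 at 1.77 and PLAT at 1.64 lie farthest to the right and TGFB2 at −1.01 farthest to the left.

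Markers of cells that could carry these transcripts also differed in summed level between the layers on U133A, although none of the marker genes passed the test. The 9 fibroblast markers summed to 249889 and 280387 units on orbital arrays and to between 208454 and 212644 on global arrays. COL3A1 weighed heavily in this sum, with a mean of 67830 units in the orbital and 35139 in the global layer. Of the 8 fibroblast markers tested, 7 were higher in the orbital layer and COL1A2 was lower (−0.060 ± 0.18). The 9 macrophage markers on the array summed to between 6511 and 7451 in the orbital and between 5029 and 5539 in the global layer, and MARCO was at the floor in the global layer. Of the 5 macrophage markers tested, CD163 was lower in the orbital layer (−0.20 ± 0.30) and the other 4 were higher. The 7 endothelial markers summed to between 14084 and 15720 units in the orbital and between 17298 and 22751 in the global layer. The 3 tendon markers on the array summed to between 2669 and 4389 against 1411 and 1591, with COMP at the floor in all groups and TNMD at the floor in the global layer. The 4 adipocyte markers summed to between 1120 and 2155 units in the orbital and between 3352 and 6605 in the global layer, with ADIPOQ, PLIN1 and LEP at the floor in both. FABP4, the one tested, differed by −1.74 ± 0.46 (limma adjusted p = 0.300), and on U133B its probe set read from 568 to 1688 units against 2681 to 4705. The 7 pericyte and smooth muscle markers summed to between 37963 and 39631 units against 35366 and 36955. The sums of the muscle fibre, Schwann cell and red blood cell lists overlapped between the layers on U133A. On U133B the fibroblast sums overlapped, at 13246 to 18797 units in the orbital and 13805 to 17015 in the global layer. So did those of the pericyte and smooth muscle, endothelial, muscle fibre and red blood cell lists. The tendon and Schwann cell lists, with 1 gene each there, were higher in the orbital layer. The part of cell composition and of the 3' to 5' ratios in the layer results was not tested.

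Medial and lateral rectus were compared to ask whether the inward-pulling and the outward-pulling muscle differ in these genes. No difference was detected in any member. On U133A, 19 of 28 probe sets were tested and 0 passed limma's test, beside 0.0% of 11907 in the table. An unadjusted p under 0.05 was reached by 1 member probe set and by 333 of 11907. On U133B neither of the 2 probe sets was high enough to be tested, and 0.0% of 11836 passed there. Half-widths of the 95% confidence intervals, which are not adjusted for the number of probe sets tested, ran from 0.42 to 1.56 on the log2 scale. Some of these intervals, such as −0.47 to 0.37 for SPARCL1, lay within 2-fold in either direction, and others did not. The lack of calls after adjustment does not by itself exclude 2-fold differences.

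The widest gap was in ELN probe set 216269_s_at, which read 513 and 296 units on the lateral rectus arrays and 1437 and 1269 on the medial rectus arrays. Both medial arrays were higher, by 1.79 ± 0.59 on the log2 scale, but the limma adjusted p was 0.999. Both lateral arrays were under the intensity filter, so this probe set was tested only through the medial rectus, where it was high. The other ELN probe set, 212670_at, read 974 and 2172 against 2203 and 1246 units and overlapped. FBLN1 207835_at read 1329 and 2049 units on the lateral and 2633 and 2493 on the medial arrays, a difference of 0.63 ± 0.32. POSTN read 1136 and 868 against 1734 and 1152 units, a difference of 0.51 ± 0.41, and SPP1 differed by −0.14 ± 0.30 (95% confidence interval −0.83 to 0.54). The 4 probe sets given here with a log2 difference kept their sign in every alternative that gave them a value, and the other 15 changed sign in at least 1. FBN1 probe set 235318_at on U133B, not tested here, read 387 and 331 units on the lateral and 1603 and 1302 on the medial arrays, whereas 202766_s_at on U133A read 6504 and 7199 against 6410 and 6725.

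Layers and whole muscles were set side by side to place the layer values against the intact muscle, although the preparation (microdissection and T7 amplification) and the tissue cannot be told apart in this comparison. Fibrillin-1 was higher in the layers at probe set 202766_s_at and fibronectin at 212464_s_at, and fibulin-1 was lower at 2 probe sets, directions that held after quantile normalization, although FBLN1 202995_s_at then missed the threshold (limma adjusted p = 0.0532). Within FBN1 and FN1, however, other probe sets of the same gene passed in the opposite direction. Those other probe sets, FBN1 202765_s_at and FN1 214701_s_at, passed the intensity filter only through whole muscle, where they were high, as did FBLN1 202995_s_at. FBN1 235318_at on U133B passed the filter only through the layers. On U133A, 17 of 28 probe sets, from 9 genes, were tested, and 11 passed limma's test, 7 higher and 4 lower in the layers. Across the whole table, as background, 48.7% of 10533 probe sets passed, 18.6% higher and 30.1% lower, so a number of this order is not a result about these genes. The median of all probe sets was −0.18, and it was 0.0021 after quantile normalization, under which 5 members passed, 3 higher and 2 lower.

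FBN1 probe set 202766_s_at read from 24415 to 42198 units on the 4 layer arrays and from 6410 to 7199 on the 4 whole muscle arrays. All layer arrays were higher, the lowest of them 3.39-fold above the highest whole muscle array. The difference, layers minus whole muscle, was 2.34 ± 0.18 on the log2 scale (limma adjusted p = 9.8e-06), or 2.52 above the median of all probe sets, and 1.92 after quantile normalization. An exact two-sided permutation test gave p = 0.0286, the smallest that 4 arrays against 4 allow, and 0.0476 adjusted over the 10 genes. The U133B probe set 235318_at was also higher in the layers, by 1.63 ± 0.56 (limma adjusted p = 0.0323), beside 42.8% of 10547 probe sets past the threshold in that table, 20.5% higher and 22.3% lower. Its groups overlapped, since the medial rectus arrays reached the lower layer arrays, and its adjusted p was 0.0821 without lateral rectus replicate 2 and between 0.0796 and 0.0937 without lateral rectus replicate 1, global replicate 1 or orbital replicate 1, and 0.0989 with no filter. The third FBN1 probe set, 202765_s_at, was lower in the layers by −1.49 ± 0.48 (adjusted p = 0.0226 in limma), with 326 to 791 units against 483 to 2395. This call was lost after quantile normalization (−0.93, limma adjusted p = 0.153), with no intensity filter (0.0762) and without global replicate 2 (0.0548).

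FN1 divided in the same way. Probe set 212464_s_at read from 14346 to 22967 units in the layers and from 4958 to 8498 in whole muscle, without overlap, a difference of 1.44 ± 0.21 (limma adjusted p = 3.3e-04). Probe set 214701_s_at read from 180.3 to 549 units in the layers and from 1143 to 1997 in whole muscle, also without overlap, a difference of −2.42 ± 0.38 (adjusted p = 4.9e-04). Both kept direction and call after quantile normalization, at 1.00 and −1.86. The x_at probe sets 211719_x_at and 210495_x_at were higher by 0.65 ± 0.20 and 0.48 ± 0.16 (adjusted p = 0.0177 and 0.0304 in limma). After quantile normalization these were 0.12 and −0.061, neither of which passed, so that their direction relative to other genes is not settled. The call of 210495_x_at was also lost without orbital replicate 1, orbital replicate 2 or medial replicate 2 (limma adjusted p = 0.0815, 0.0593 and 0.0857), with no intensity filter (0.0549) and without a variance trend (0.0651). For 211719_x_at, whose groups overlapped, the exact permutation p was 0.0571, adjusted 0.0816, and limma's adjusted p with no filter was 0.0587.

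FBLN1 was lower in the layers at both tested probe sets. Probe set 207835_at read from 660.3 to 926 units in the layers and from 1329 to 2633 in whole muscle, without overlap, a 2.60-fold lower value (−1.38 ± 0.25, limma adjusted p = 0.00106; exact permutation p = 0.0286, adjusted 0.0476). It kept its call in all 15 alternatives that gave it a value. Probe set 202995_s_at read from 354 to 660.3 units against 1194 to 1532, a difference of −1.29 ± 0.28 (adjusted p = 0.00302 in limma; 0.0532 after quantile normalization). Probe set 201787_at, which parted the layers, was not among the tested ones here, and its layer arrays lay both above and below the whole muscle range of 376 to 708 units. The exact test took 207835_at as the FBLN1 probe set with the highest mean over all arrays, which it had only through whole muscle, where it was high. Its exact p-value therefore adds no support to the values given.

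Elastin and tenascin-C probe sets that were too dim for the table-wide test also parted layers from whole muscle. The share of all probe sets that part in this way was not counted. In this comparison 48.7% of the U133A probe sets tested passed limma's test, so such parting is not a result about these genes alone. ELN 212670_at read from 141 to 365 units in the layers and from 974 to 2203 in whole muscle, a log2 difference of −2.90 (exact permutation p = 0.0286, adjusted 0.0476). ELN 216269_s_at overlapped between the groups and differed by −0.067 ± 0.49 (adjusted p = 0.920 in limma). TNC 201645_at read from 838 to 1385 units in the layers and from 290.3 to 363 in whole muscle, a difference of 1.76 (exact permutation p = 0.0286, adjusted 0.0476). The second TNC probe set, 216005_at, ran the other way without overlap, with 241 to 367 units in the layers and 566 to 792 in whole muscle, and was not tested. The exact test took the probe set of each gene with the highest mean over all arrays. ELN 212670_at was the brighter of its pair only in whole muscle and TNC 201645_at only in the layers, where each was high. Their exact p-values therefore add no support to the values given.

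SPARC and SPARCL1 were modestly higher in the layers, an order that rests on the scaling. SPARC 200665_s_at read from 22884 to 26274 units against 12012 to 16282, a difference of 0.69 ± 0.14 (limma adjusted p = 0.00237). SPARCL1 read from 22239 to 38935 units against 19122 to 20783, a difference of 0.58 ± 0.18 (adjusted p = 0.0198). Neither pair of groups overlapped, and the exact permutation p was 0.0286 for both, adjusted 0.0476. After quantile normalization these differences were 0.11 and 0.055 (adjusted p = 0.550 and 0.852 in limma), and the SPARCL1 adjusted p was 0.0590 without orbital replicate 1 and 0.0541 with no filter. The second SPARC probe set overlapped between groups and differed by −0.016 ± 0.36.

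VCAN 221731_x_at was higher in the layers by 0.64 ± 0.23 (limma adjusted p = 0.0390; exact permutation p = 0.0857, adjusted 0.107). Leaving out any array except global replicate 2 or medial replicate 1 ended this call, with adjusted p from 0.0594 without lateral replicate 1 to 0.114 without orbital replicate 1. It was also lost with no filter (limma adjusted p = 0.0839) and without a variance trend (0.0544). VCAN 204620_s_at differed by −0.30 ± 0.29 and POSTN by −0.45 ± 0.33, and neither passed (exact permutation p = 0.286 for POSTN). SPP1, with 1 layer low and the other high, averaged 1373 ± 1352 units in the layers and 1797 ± 167 in whole muscle (SD, n = 4 each), a difference of −1.22 ± 0.75 (adjusted p = 0.195 in limma; exact permutation p = 0.429). It passed when all 4 groups were fitted together, each with its own mean (limma adjusted p = 0.00997), and without global replicate 1 (−1.85, limma adjusted p = 0.0438). Without orbital replicate 2 the difference was −0.42 (limma adjusted p = 0.558).

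**Figure D5:**
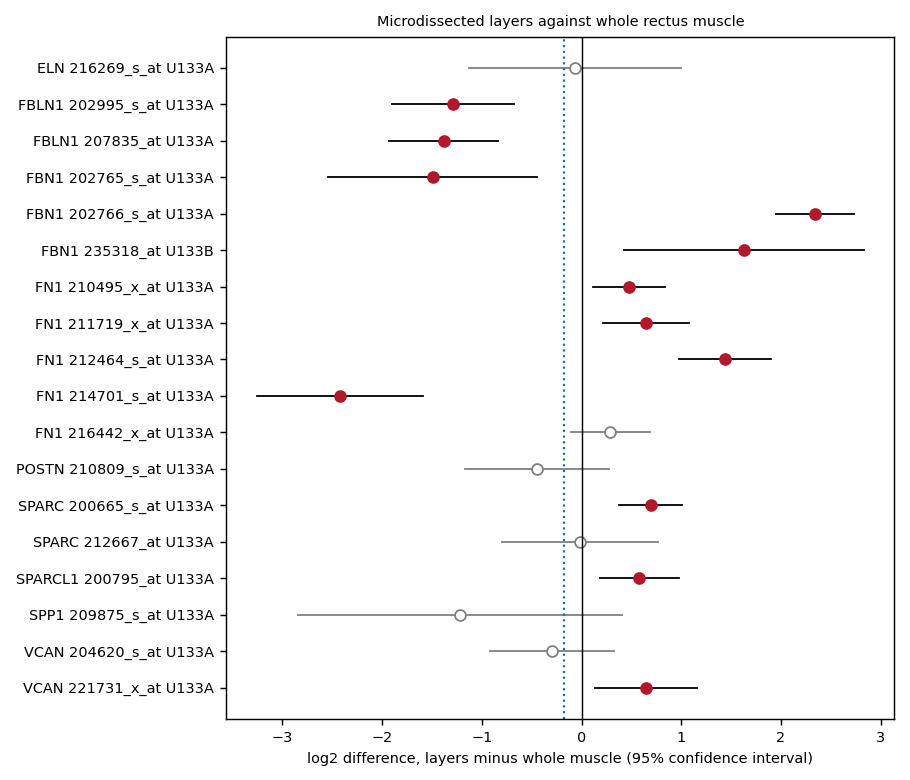
Log2 difference (microdissected layers minus whole rectus muscle) of each member probe set tested, with its 95% confidence interval; filled points passed limma's test and open points did not, and the dotted line marks the median of all U133A probe sets tested, −0.18. FBN1 runs from −1.49 to 2.34 and FN1 from −2.42 to 1.44 over their own probe sets, and both FBLN1 probe sets lie below 0.

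Partner genes were called in both directions between layers and whole muscle on U133A, where 18.6% of all probe sets tested passed higher and 30.1% lower, so counts near these shares are not a result about the partners. Of 15 elastic fibre partners tested, 4 rose and 3 fell. LTBP3 (1.89 ± 0.43), LTBP4 (1.27 ± 0.37), FBLN2 (fibulin-2; 1.15 ± 0.30) and LOXL2 (0.66 ± 0.26) were higher in the layers. The lysyl oxidase relative LOXL1 (−1.39 ± 0.27), ADAMTSL4 (−1.10 ± 0.25) and LTBP2 (−0.73 ± 0.27) were lower, and the list's median of −0.26 became 0.31 after quantile normalization. Of 11 receptors, ITGA8, ITGB5, ITGA7 and SDC2 rose by 0.58 to 1.18, whereas ITGB3, the β-chain of an osteopontin receptor, fell by 1.64 and SDC1 by 0.89 (log2 differences −1.64 ± 0.32 and −0.89 ± 0.30).

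Of 12 other matricellular proteins, TGFBI rose by 1.26 ± 0.24, whereas THBS1 (thrombospondin-1; −1.34 ± 0.27), SPON1 (−1.28 ± 0.25) and TNR (tenascin-R; −1.14 ± 0.29) fell. Of 5 hyaluronan and hyalectan partners, ACAN fell together with BCAN (−1.35 ± 0.19), HMMR (−1.17 ± 0.28) and TNFAIP6 (−1.02 ± 0.30). Of 11 proteases and inhibitors, ADAMTS1, which cleaves versican, rose by 1.91 ± 0.40, and MMP14, MMP9, MMP7, MMP2 and TIMP1 fell, with differences of −1.87 to −0.67. Of 8 TGF-beta genes, TGFB2 (−2.19 ± 0.33) and TGFB3 (−0.84 ± 0.21) fell. After quantile normalization 28 of these 29 called genes were tested, all 28 kept their direction and 21 kept their call. ADAMTS1 was not tested there, and SDC1, LTBP2, ADAMTSL4, TNR, HMMR, TNFAIP6 and MMP7 missed the threshold. At least ITGB3, SDC1, HMMR, MMP7 and MMP9 were under the intensity filter on the layer arrays alone, and LTBP3 and LTBP4 on the whole muscle arrays alone. These genes were tested only through the group in which they were high, so their calls and kept directions describe the values without testing them.

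On U133B fewer partner genes were tested, beside 20.5% of all 10547 probe sets called higher and 22.3% lower in the layers, and with 2 to 5 genes a list the counts only describe them. Of 3 receptors, ITGA9, an osteopontin and tenascin-C receptor chain, was higher in the layers (3.52 ± 0.54), as was LTBP3 (1.36 ± 0.51) of 3 elastic fibre partners. Both proteases and inhibitors tested were higher, the versican-cleaving ADAMTS5 (1.66 ± 0.17) and TIMP2 (2.02 ± 0.21). Of 4 TGF-beta genes, SMAD2 (2.92 ± 0.40) and the receptors TGFBR3 (2.05 ± 0.25) and TGFBR1 (1.33 ± 0.22) were higher. Of 3 other matricellular proteins, CCN4 (−2.16 ± 0.44) and SMOC2, a SPARC relative (−1.59 ± 0.35), were lower. Of 5 hyaluronan and hyalectan partners, BCAN (−1.33 ± 0.29) and the link proteins HAPLN1 (−1.16 ± 0.25) and HAPLN3 (−0.87 ± 0.28) were lower. The U133B probe set of TGFB2 differed by 0.54 ± 0.21 and did not pass, opposite in sign to its U133A probe set. Of the genes called on U133B, only LTBP3 and BCAN were also called on U133A, in the same directions. The others were either not tested or short of the threshold there, and no TGF-beta gene was called higher in the layers on U133A. Whether these U133B calls hold after quantile normalization was not tested. No partner gene passed between medial and lateral rectus on either array type.

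Genes whose log2 intensity followed a member most closely over the 8 U133A arrays were taken from 9283 probe sets by Pearson's r, as a description without a test, since the arrays of a group share a preparation and layer arrays a protocol. SPP1 was followed by WWP1 (r = 0.99), GGA1 (0.97) and PDE4A (0.97). FBN1 202766_s_at was followed by HIF1A, PCSK5 and GRB10 (0.99 each), and FBLN1 207835_at by CD79A, PDGFB and POM121C (0.99 each). POSTN had the loosest followers, with CADM1 at 0.91.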

How the data were processed

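Arrays of macaque RNA on human U133A and U133B arrays were analysed, 16 in all. Per the file values, the authors deposited a linear intensity for every probe set of every array; the 2% trimmed mean was 1500.2 to 1500.7 on every array, and the summary software is not given in the sources used here. Arrays were grouped by title, and titles number the layer arrays and part of the rectus arrays, the rest being numbered in order of deposit. Arrays were brought to the same 2% trimmed mean, values under the pooled 20th percentile (146.487 and 218.465) were set to that value before log2. Probe sets were kept where their mean log2 value over the arrays compared reached that of the pooled median (653.942 and 802.702). Control probe sets (68 a table) were not used, and tables were fitted separately with limma 3.58.1 in R 4.3.3 (trended variances), with two-sided tests and Benjamini-Hochberg adjustment over all kept probe sets. All member probe sets carry 1 symbol in the platform annotation. In partner and marker lists, the probe set with the highest mean stood for its gene. List genes past the threshold were named up to 6 a list and comparison, otherwise up to 3 with the smallest p. Exact permutation tests (scipy 1.17.1) used 1 probe set a gene, that with the highest mean over all arrays of both groups, for layers against whole muscle. The fits were tested on simulated data. The members and the lists were chosen with earlier results of these data known. Alternatives were quantile normalization, floors at the 5th and 40th percentile, filtering at the 75th percentile or not at all, fits with array weights, without a variance trend, over all 4 groups together or with a replicate block, and omission of each array. Leaving out layer arrays with the probe sets kept over all arrays was added after the data were seen.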

Additional observations from a re-analysis of the deposited data

How the results depend on the processing

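Between the layers on U133A, the number of members past the threshold was 2 in the settings reported and 1 after quantile normalization or without a variance trend. It was 0 with the floor at the 5th percentile, with no filter or with the filter at the 75th percentile. It was 1 whichever layer array was left out. The filter at the 75th percentile dropped both probe sets from the test, and the floor at the 5th percentile dropped FBLN1 201787_at, while the cause of the other losses was not tested. Without a global array SPP1 fell under the filter, and without an orbital array FBLN1 201787_at did. In the added variant that keeps the probe sets of the full comparison, the number was 1 without global replicate 1 and 2 without any other. Where 1 array was left, it was assumed to vary like the other group. With arrays left out, SPARCL1 ran from −0.33 to 0.48 (−0.17 without orbital replicate 1 in that variant), FBLN1 207835_at from −0.22 to 0.27 and FN1 211719_x_at from −0.040 to 0.35. The U133B FBN1 difference ran from −0.48 to 0.75 and was −0.47 without global replicate 2. The replicate block left 2 members past the threshold and moved all U133A calls from 39 to 92, and all U133B calls from 2 to 26. Layer arrays of the same number correlated in their deviations at 0.26 and 0.13, over only 2 pairs, so the number is not taken as a pairing.

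Between layers and whole muscle on U133A, 11 members became 5 after quantile normalization and 7 with the filter at the 75th percentile, which tested fewer probe sets. Quantile normalization turned FN1 210495_x_at to −0.061, POSTN to 0.064, ELN 216269_s_at to 0.52 and FN1 216442_x_at to −0.29, none of which passed. With no filter 6 member calls over both array types were lost (limma adjusted p from 0.0541 to 0.0989), and without a variance trend 2. With arrays left out, SPARC 212667_at ran from −0.28 to 0.29 and ELN 216269_s_at from −0.50 to 0.073. The U133B count of 1 was 0 with no filter or the filter at the 75th percentile, and 0 to 1 with arrays left out. Calls over the whole U133A table between layers ranged from 0 with no filter to 144 without global replicate 2.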
